A study of Mus musculus with 6 samples.

Results

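The 49 genes described here encode the machinery that copies DNA and the enzymes that make its nucleotide precursors, with the cyclins and E2F factors of the G1/S transition. They were chosen by name, from a list of licensing, helicase, polymerase, clamp, nucleotide synthesis, chromatin assembly and G1/S genes. All 49 were among the 17438 genes of the count table, and all 49 passed the filter on low counts. The fewest counts of any of them in a library were 252 and the most 20016. RNA was sequenced in ILC2s (group 2 innate lymphoid cells), which sit in barrier tissues and release IL-5 and IL-13 when they meet the alarm cytokine IL-33. The labels describe ILC2s sorted from lung of CB57BL/6 mice, given IL-33 and cultured before RNA was taken. The wild-type group (WT1, WT2 and WT3, n = 3) was compared with mice of genotype B6.129S4-Cd48tm1Rsr/EpaulJ (KO1, KO2 and KO3, n = 3). That allele disrupts Cd48, which encodes a surface ligand of CD244 and CD2. Both groups had the same tissue, sort and treatment. The sources used here do not give the age and sex of the mice, the dose and time of IL-33, or whether each sample is 1 animal or a pool. A p-value therefore measures only how these samples spread, and that spread may be technical in part. The allele name gives a 129S4 donor on a B6 background, so an effect of the allele and of linked donor sequence cannot be told apart. The design text mentions duplicates, while 3 samples of each genotype are given. WT1 stood apart from the other 5 libraries, so each comparison was made with all 6 libraries and again without WT1 (2 WT against 3 KO).

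Replication starts with licensing. The origin recognition complex, Cdc6 and Cdt1 load the ring of Mcm2 to Mcm7 onto DNA in G1, and geminin blocks reloading once S phase begins. Cdc45 and the GINS complex turn the loaded ring into the active helicase. Primase and polymerase alpha then lay down primers, the RFC complex loads the PCNA clamp, and polymerases delta and epsilon extend the strands. Ribonucleotide reductase, with subunits from Rrm1 and Rrm2, makes deoxyribonucleotides and sets their supply. E2F factors activate many of these genes as a cell leaves G1, and cyclin E with its kinase drives that step. Cultured ILC2s divide in response to IL-33 and cytokines of the common gamma chain.

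Because E2F activation is a textbook trait of many of these genes, their promoters were searched for 3 short E2F words, TTGGCGC or TTCGCGC or TTCCCGC, on both strands, with overlapping matches counted. RefSeq windows of the GRCm38.p6 build, reaching 250 bases before to 50 bases after a gene's start, were held for 40 of the 49 genes. An E2F word stood in at least 1 window of 24 of these genes, against 9.20% of the 27025 genes with a window. Per window, the shares were 57.4% of 47 and 8.07% of 32851. The CCAAT box (CCAAT, both strands) was in 28 of the member windows (59.6%) and 37.4% of all windows. The mitotic CHR element (TTTGAA or TTCGAA, both strands) was in 8 of them (17.0%) and 19.2% of all windows. These are letter matches, not bound sites. The windows of 5 genes are shown 5′ to 3′ on the gene's strand, with E2F words in capitals. Rrm1 and Rrm2 are shown because they passed the test without WT1, and Pola1 because DESeq2 called it there. Mcm5 and Mcm6 are shown because they carry several words and did not pass. Ccne2, which also passed without WT1, was among the genes with no window.
Rrm1, chr7:102441445-102441744, plus strand: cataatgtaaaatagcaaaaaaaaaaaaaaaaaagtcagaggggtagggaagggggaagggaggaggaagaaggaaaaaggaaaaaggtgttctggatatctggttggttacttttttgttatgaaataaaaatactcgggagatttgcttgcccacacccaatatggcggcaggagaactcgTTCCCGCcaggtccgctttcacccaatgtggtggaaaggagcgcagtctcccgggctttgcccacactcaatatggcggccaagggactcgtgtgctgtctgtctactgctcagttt
Rrm2, chr12:24708004-24708303, plus strand: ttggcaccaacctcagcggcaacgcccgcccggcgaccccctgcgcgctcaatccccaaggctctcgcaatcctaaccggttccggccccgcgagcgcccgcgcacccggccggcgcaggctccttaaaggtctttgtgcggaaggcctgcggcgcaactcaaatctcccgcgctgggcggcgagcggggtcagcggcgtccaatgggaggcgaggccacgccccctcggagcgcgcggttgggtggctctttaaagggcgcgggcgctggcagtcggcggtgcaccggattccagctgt
Pola1, chrX:93632106-93632405, minus strand: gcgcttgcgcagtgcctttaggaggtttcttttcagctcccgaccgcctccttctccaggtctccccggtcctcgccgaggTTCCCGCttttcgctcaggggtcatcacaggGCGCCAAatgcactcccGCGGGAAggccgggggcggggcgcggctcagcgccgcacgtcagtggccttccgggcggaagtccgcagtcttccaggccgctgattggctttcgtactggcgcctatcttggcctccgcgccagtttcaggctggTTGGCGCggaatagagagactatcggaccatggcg
Mcm5, chr8:75109259-75109558, plus strand: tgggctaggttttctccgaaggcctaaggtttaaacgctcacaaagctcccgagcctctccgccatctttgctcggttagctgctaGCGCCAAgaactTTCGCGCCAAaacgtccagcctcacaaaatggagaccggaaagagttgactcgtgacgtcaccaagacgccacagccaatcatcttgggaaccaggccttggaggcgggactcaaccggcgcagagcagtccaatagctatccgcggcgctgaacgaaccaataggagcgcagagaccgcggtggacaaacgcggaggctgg
Mcm6, chr1:128359656-128359955, minus strand: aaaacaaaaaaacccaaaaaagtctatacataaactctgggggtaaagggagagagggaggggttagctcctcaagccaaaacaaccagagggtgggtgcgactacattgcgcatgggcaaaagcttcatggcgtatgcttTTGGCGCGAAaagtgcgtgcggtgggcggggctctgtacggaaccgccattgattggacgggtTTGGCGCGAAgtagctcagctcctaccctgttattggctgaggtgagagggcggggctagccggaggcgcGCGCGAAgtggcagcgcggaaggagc
The Rrm1 window holds 1 match and the Rrm2 window 0. Pola1, Mcm5 and Mcm6 hold 4, 3 and 5 matches. Without WT1, the median log2 fold change was 0.040 over the 24 genes with a word and 0.12 over the 16 without, and this difference was not tested.

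Library totals ran from 14928623 to 27450400 counts. Levels below are CPM, gene counts scaled to a common library size, listed for each library in order, and fold changes are Cd48 KO over WT. Cd48 itself checked the labels, at 58.1, 46.5 and 41.5 CPM across WT1, WT2 and WT3 and 4.51, 5.59 and 4.40 CPM across KO1, KO2 and KO3. Across genes, log2 CPM of WT1 correlated with the other 5 libraries at a Pearson's r of 0.922 to 0.932, and those 5 with each other at 0.980 to 0.988. The 14 ILC2 markers were present, with Gata3 at 779 to 1416 CPM and Il1rl1 at 610.0 to 1346 CPM over the libraries. Il1rl1, Il2ra and Il17rb were higher in every KO library than in every WT library. Thy1 (6.04 to 12.4 CPM) was lower in every KO library, and the rest of this list overlapped. Summed markers of T cells (8 of 12 measured) were at 216 to 277 CPM in WT and 156 to 179 CPM in KO, those of macrophages, monocytes and dendritic cells (11 of 12) at 76.2 to 89.8 CPM in WT and 63.1 to 66.7 CPM in KO, and those of epithelium (8 of 8) at 31.4 to 83.1 CPM in WT and 10.1 to 24.1 CPM in KO. These 3 sums were lower in every KO library than in every WT library, and those of the other marker lists overlapped between the genotypes. Most of the T cell sum was Trbc2 (91.1 to 146 CPM), Trbc1 (26.9 to 60.5 CPM) and Cd3g (12.9 to 40.9 CPM), while Cd3e was at 0.491 to 2.67 CPM, Cd3d at 0.0698 to 0.574 CPM and Trac at 0 to 0.349 CPM. Of the 6 T cell markers tested, 5 were lower in every KO library than in every WT library and 1 was higher. The higher one was Lef1, at 14.02 to 14.67 CPM in WT and 14.99 to 18.73 CPM in KO. Most of the myeloid sum was Xcr1 (49.96 to 65.7 CPM), with Cd68 at 3.95 to 8.28 CPM and Adgre1 at 0 to 2.02 CPM. All 7 myeloid markers tested, Xcr1 included, overlapped between the genotypes, so only their sum was separated. Of the epithelial markers, Epcam was at 9.15 to 20.3 CPM, Scgb1a1 at 0 to 47.2 CPM and Sftpc at 0 to 23.3 CPM. Among the 4 of them tested, 2 were lower in every KO library than in every WT library and 0 were higher. Trac, Adgre1, Scgb1a1 and Sftpc were each at 0 in at least 1 library. The part of these transcripts in the results was not tested. In bulk RNA, a change in the share of cells in S phase and a change in RNA per cell cannot be told apart.

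The comparison of KO with WT asked whether the replication programme of IL-33-treated ILC2s differs when CD48 is disrupted. Without WT1, Rrm1, Rrm2 and Ccne2 rose in KO, by 0.30 to 0.45 on the log2 scale, and the other 46 genes did not pass the test. Calls are at an adjusted p under 0.05 in the quasi-likelihood test of edgeR, with the Benjamini-Hochberg adjustment over all genes. So 3 of 49 (6.12%) were called higher, against 1.17% of the 13643 genes tested. None was called lower (0.652% of all genes were), and 1.82% of all genes were called in either direction. At an unadjusted p under 0.05, 12 were higher and 0 lower, against 8.07% and 5.60% of all genes. With all 6 libraries, 0 of 49 were called in either direction, as were 0.0300% of 13317 genes (0.0150% higher and 0.0150% lower). At an unadjusted p under 0.05, 2 members were then higher and 0 lower, against 2.94% and 3.95% of all genes. Of the members, 0 were called on the 6 libraries by DESeq2, against 0.421% of all genes higher and 0.390% lower. Likewise 0 were called by limma-voom with quality weights per sample, against 0.383% higher and 0.330% lower.

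The members shifted by small amounts. Without WT1, 40 of 49 had a log2 fold change above 0, where 50.2% of all tested genes did, and the median was 0.085 (4.76e-04 over all tested genes). Every KO library lay above both WT2 and WT3 for 18 of 49 (36.7%, against 15.8% of all genes), and below both for 1 (against 14.3%). With all 6 libraries, 25 of 49 were above 0 and the median was 0.034 (-0.0039 over all tested genes). Every KO library then lay above every WT library for 8 genes (16.3%, against 10.2%) and below for 1 (against 9.11%). The 49 genes took 0.910%, 0.844% and 0.843% of all counts across WT1, WT2 and WT3, and 0.884%, 0.913% and 0.923% across KO1, KO2 and KO3. WT1 thus lay among the KO libraries in this share of raw counts, but not after scaling. Their summed CPM was 9478, 8404 and 8298 across WT1, WT2 and WT3 and 8811, 9044 and 9156 across KO1, KO2 and KO3. WT1 was then the highest library, and KO lay above WT2 and WT3. Without WT1 the 95% interval of the fold change lay within 1.5-fold in either direction for 47 of 49 genes. With all 6 libraries more intervals passed that bound, such as those of Pole (0.80 to 2.78-fold), Slbp (0.47 to 1.34-fold) and Ccne2 (0.58 to 1.65-fold).

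**Figure D1:**
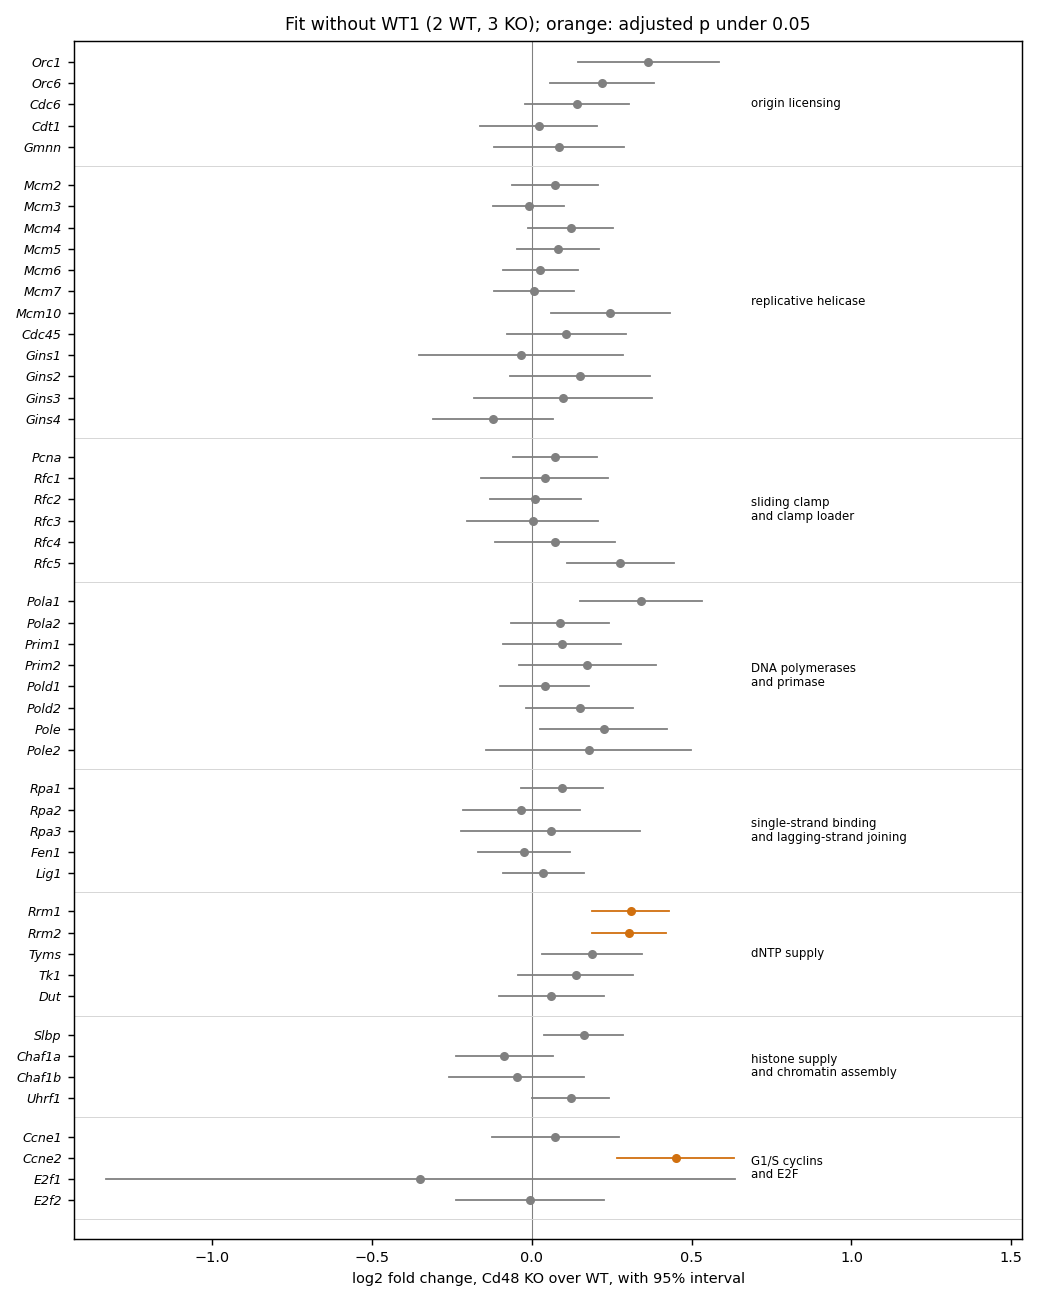
Each row is a gene, grouped by role, and the horizontal axis is its log2 fold change (KO over WT, fit without WT1) with the 95% interval as a bar. Rrm1, Rrm2 and Ccne2, in orange, passed the test, and 40 of the 49 points lie above 0.

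Deoxyribonucleotide supply held 2 of the 3 rises. Rrm1, the large catalytic subunit of ribonucleotide reductase (GRCm38 chromosome 7, 102441695 to 102469771, plus strand), was at 395, 458 and 463 CPM across WT1, WT2 and WT3 and 544, 575 and 588 CPM across KO1, KO2 and KO3. All KO libraries lay above all WT libraries, WT1 included. The mean of WT2 and WT3 was 460.4 ± 4.04 CPM (SD, n = 2) and that of KO 569 ± 23.1 CPM (SD, n = 3), so that the log2 fold change without WT1 was 0.31 (SE 0.056, edgeR adjusted p 0.0147). With WT1 it was 0.38 (SE 0.11, edgeR adjusted p 0.690). Rrm2, the small subunit, which carries the radical and is made in S phase (GRCm38 chromosome 12, 24708241 to 24714146, plus strand), was at 1303, 668 and 718 CPM across WT1, WT2 and WT3 and 845, 839 and 876 CPM across KO1, KO2 and KO3. WT1 was the highest library and WT2 and WT3 the lowest. Without WT1 the WT mean was 693 ± 35.1 CPM (SD, n = 2) and the KO mean 853 ± 20.0 CPM (SD, n = 3), for a log2 fold change of 0.30 (SE 0.054, edgeR adjusted p 0.0131), while with WT1 it was -0.071 (SE 0.26, adjusted p 0.917). Per kilobase of transcript, the ratio of Rrm2 to Rrm1 was 8.24, 3.65 and 3.87 across WT1, WT2 and WT3 and 3.88, 3.64 and 3.72 across KO1, KO2 and KO3. WT1 held the high ratio, and the KO ratios overlapped those of WT2 and WT3. With sample quality weights (limma-voom, a weight of 0.0919 for WT1), the 6 libraries gave log2 fold changes of 0.32 for Rrm1 and 0.28 for Rrm2 (adjusted p 0.0529 and 0.155).

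The other nucleotide genes did not pass. Tyms, thymidylate synthase, was at 238, 144 and 134 CPM across WT1, WT2 and WT3 and 153, 166 and 155 CPM across KO1, KO2 and KO3, a log2 fold change of 0.19 without WT1 (SE 0.072, edgeR adjusted p 0.258). Tk1, the thymidine kinase of S phase, and Dut, which removes dUTP, had log2 fold changes of 0.14 and 0.060 without WT1, with 95% intervals of -0.042 to 0.32 and -0.10 to 0.22. For Tyms every KO library lay above WT2 and WT3, and WT1 lay above them all. Pseudogenes named for Tyms and Pcna are annotated, so the division of their reads is uncertain.

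**Figure D2:**
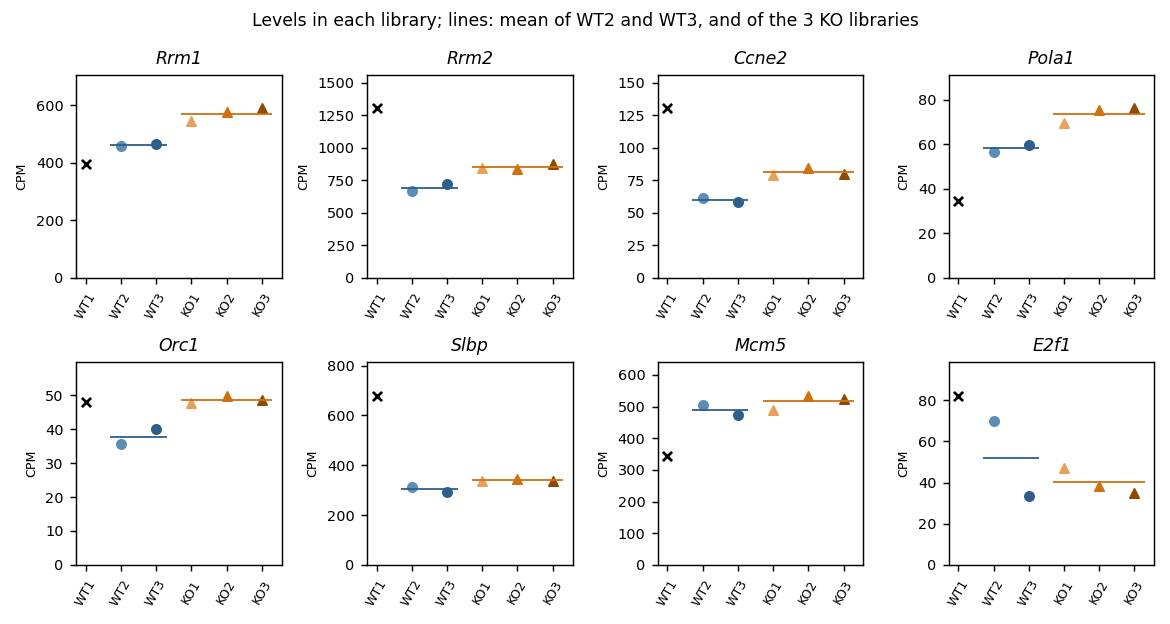
Each panel shows 1 gene, with the libraries along the horizontal axis and the level in CPM from 0 on the vertical axis, and lines mark the mean of WT2 and WT3 and of the KO libraries. Rrm1, Rrm2, Ccne2, Pola1, Orc1 and Slbp are higher in each KO library than in WT2 and WT3, and WT1 lies above all of these libraries for Rrm2, Ccne2 and Slbp.

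Among the G1/S genes, cyclin E2 rose without WT1 and cyclin E1 did not pass. Ccne2, cyclin E2 (GRCm38 chromosome 4, 11191351 to 11204779, plus strand), was at 130.2, 60.9 and 57.9 CPM across WT1, WT2 and WT3 and 78.7, 84.5 and 79.6 CPM across KO1, KO2 and KO3. KO1, KO2 and KO3 lay above WT2 and WT3 and below WT1. Without WT1 the WT mean was 59.4 ± 2.13 CPM (SD, n = 2) and the KO mean 80.9 ± 3.13 CPM (SD, n = 3), for a log2 fold change of 0.45 (SE 0.085, edgeR adjusted p 0.0188), the largest of the 49. With WT1 it was -0.035 (SE 0.32, edgeR adjusted p 0.968). Ints8 overlaps Ccne2 on the opposite strand, and since the strand setting is not given, reads from the shared stretch cannot be told apart. Ccne1, cyclin E1, was at 77.8, 66.8 and 61.1 CPM across WT1, WT2 and WT3 and 64.4, 64.7 and 72.0 CPM across KO1, KO2 and KO3, a log2 fold change of 0.073 without WT1 (95% interval -0.13 to 0.27). Its groups overlapped. Per kilobase, the ratio of Ccne2 to Ccne1 was 1.11, 0.607 and 0.631 across WT1, WT2 and WT3 and 0.814, 0.869 and 0.736 across KO1, KO2 and KO3, so that KO lay between WT1 and the other WT libraries.

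E2f1, an activating E2F, differed more between WT2 and WT3 than any other member. It stood at 82.2, 69.9 and 33.5 CPM across WT1, WT2 and WT3 and 47.1, 38.4 and 34.7 CPM across KO1, KO2 and KO3, so WT3 lay below every KO library and WT2 above. The log2 fold change without WT1 was -0.35 with a 95% interval of -1.33 to 0.63 (edgeR adjusted p 0.772). With WT3 also left out it was -0.81 (adjusted p 0.0407), a value that rests on WT2 as the lone WT library. E2f2, another activator, was at 35.2, 41.4 and 43.1 CPM across WT1, WT2 and WT3 and 46.2, 41.3 and 38.6 CPM across KO1, KO2 and KO3 (log2 fold change -0.0063 without WT1). It had the lowest level of the 49 per length, at 8.64 CPM per kilobase over the 6 libraries.

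The calls of Rrm1, Rrm2 and Ccne2 rest on 5 libraries. Leaving out WT2 as well ended all 3 (edgeR adjusted p 0.1001, 0.136 and 0.0719). Leaving out KO2 did so too (0.0969, 0.0652 and 0.110), and so did leaving out KO3 (0.0804, 0.0803 and 0.0874). Without WT3 the calls of Rrm1 and Ccne2 ended (adjusted p 0.0699 and 0.119) and that of Rrm2 did not (0.0319). Over these fits and the one without KO1, the log2 fold changes stayed at 0.28 to 0.35 for Rrm1, 0.25 to 0.35 for Rrm2 and 0.41 to 0.48 for Ccne2. Without WT1, DESeq2 gave adjusted p of 5.07e-04, 4.55e-04 and 3.38e-04 for Rrm1, Rrm2 and Ccne2, and limma-voom gave 0.0207, 0.0199 and 0.0259. By limma-voom 0.960% of all genes were called higher without WT1 and 0.638% lower.

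**Figure D3:**
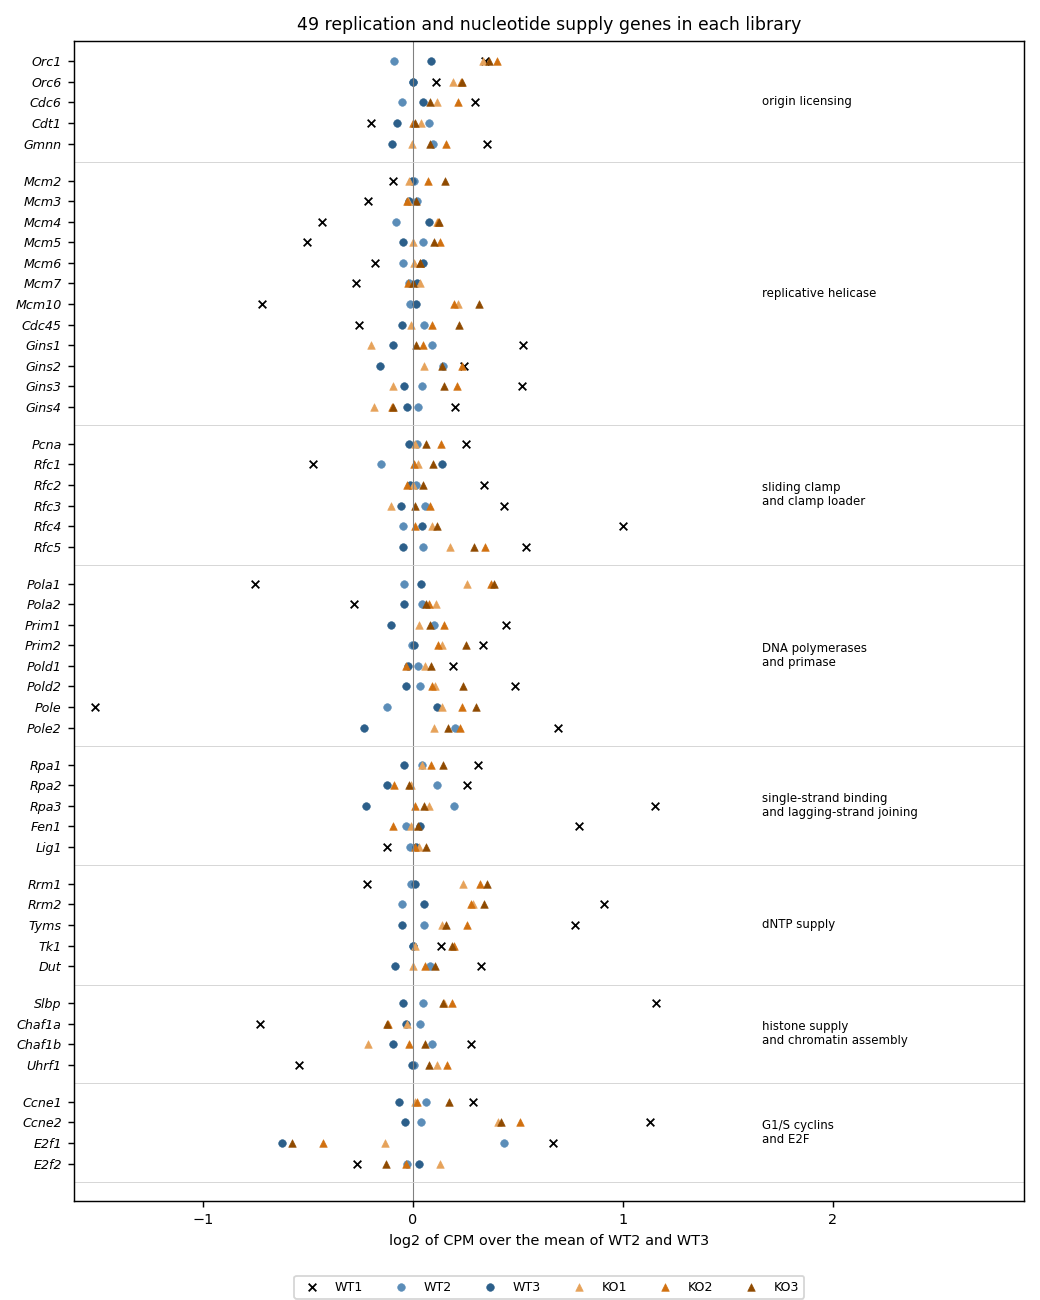
Each row is a gene, and points give log2 of its CPM in each library over the mean of WT2 and WT3 (crosses WT1, circles WT2 and WT3, triangles KO). The crosses of WT1 lie far from the other points for Pole, Rpa3, Slbp and Ccne2, while the KO triangles of Rrm1, Rrm2, Ccne2, Pola1 and Orc1 lie to the right of both circles.

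Of the 5 licensing genes, 5 had log2 fold changes above 0 without WT1 and 4 with all 6 libraries, and none passed. Orc1, the largest subunit of the origin recognition complex, was at 48.0, 35.5 and 40.1 CPM across WT1, WT2 and WT3 and 47.6, 49.9 and 48.7 CPM across KO1, KO2 and KO3. KO lay above WT2 and WT3, and WT1 fell among the KO libraries. Its log2 fold change without WT1 was 0.36 (SE 0.10, edgeR adjusted p 0.107). Orc6, the smallest subunit, was at 93.3, 86.5 and 86.4 CPM across WT1, WT2 and WT3 and 98.5, 101 and 102 CPM across KO1, KO2 and KO3, with every KO library above every WT library, WT1 included. Its log2 fold change was 0.22 without WT1 and 0.18 with all 6 libraries (edgeR adjusted p 0.202 and 0.690). Orc6 overlaps Vps35 on the opposite strand. Cdc6, the ATPase that recruits the MCM ring, Cdt1, its partner in loading, and Gmnn, the geminin gene, had log2 fold changes of 0.14, 0.021 and 0.085 without WT1. Their 95% intervals were -0.023 to 0.30, -0.16 to 0.20 and -0.12 to 0.29. Per kilobase, Cdt1 to its inhibitor Gmnn stood at 0.299, 0.432 and 0.445 across WT1, WT2 and WT3 and at 0.452, 0.394 and 0.417 across KO1, KO2 and KO3. Apart from WT1, this ratio of RNA levels overlapped between the genotypes, and the proteins were not measured here.

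The 6 subunits of the MCM ring were nearly level in the fit without WT1. Without WT1 their log2 fold changes ran from -0.010 (Mcm3) to 0.12 (Mcm4), and their 95% intervals lay between -0.12 and 0.25. With all 6 libraries the values ran from 0.055 (Mcm3) to 0.25 (Mcm4), and the intervals lay between -0.20 and 0.61. Mcm5, the most abundant of the ring per length (142 CPM per kilobase), was at 345, 505 and 473 CPM across WT1, WT2 and WT3 and 489, 534 and 525 CPM across KO1, KO2 and KO3. Its KO values overlapped WT2 and WT3, and WT1 was the lowest library. Mcm4 was at 265, 339 and 378 CPM across WT1, WT2 and WT3 and 388, 389 and 391 CPM across KO1, KO2 and KO3, with every KO library above every WT library (log2 fold change 0.12 without WT1, edgeR adjusted p 0.418). Over the 6 libraries the ring's subunits differed by 1.61-fold per kilobase, from Mcm7 at 87.7 to Mcm5 at 142 CPM per kilobase. Mcm7 overlaps Cops6 and Ap4m1 on the opposite strand.

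The genes that activate the ring had lower levels. Mcm10, which helps start unwinding, was at 36.7, 59.7 and 61.1 CPM across WT1, WT2 and WT3 and 70.1, 69.2 and 75.2 CPM across KO1, KO2 and KO3. Every KO library lay above every WT library, and WT1 was far below WT2 and WT3. The log2 fold change was 0.25 without WT1 (SE 0.086, edgeR adjusted p 0.213) and 0.44 with it. Cdc45 had a log2 fold change of 0.11 without WT1 (95% interval -0.079 to 0.29). In the GINS complex the values were -0.034 for Gins1, 0.15 for Gins2, 0.098 for Gins3 and -0.12 for Gins4. Gins4 was the only member with every KO library below every WT library, at 73.6, 65.2 and 62.9 CPM across WT1, WT2 and WT3 and 56.4, 59.8 and 59.9 CPM across KO1, KO2 and KO3 (edgeR adjusted p 0.600 without WT1). Per kilobase of the longest annotated transcript, GINS subunits differed by 3.99-fold, from Gins3 at 11.7 to Gins4 at 46.7 CPM per kilobase.

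Polymerase genes had log2 fold changes above 0 in 8 of 8 cases without WT1 and in 4 of 8 with all 6 libraries, and none passed. Pola1, the catalytic subunit of polymerase alpha on the X chromosome, was at 34.5, 56.6 and 59.9 CPM across WT1, WT2 and WT3 and 69.6, 75.4 and 76.2 CPM across KO1, KO2 and KO3. Every KO library lay above every WT library. The log2 fold change was 0.34 without WT1 (SE 0.089, 95% interval 0.15 to 0.53, edgeR adjusted p 0.0819), and DESeq2 called it on the same 5 libraries (adjusted p 0.0292). DESeq2 called 1.90% of all genes higher there and 1.12% lower. With all 6 libraries the edgeR value was 0.55 (adjusted p 0.690). Its partners in the complex, Pola2 and the primase genes Prim1 and Prim2, had log2 fold changes of 0.088, 0.093 and 0.17 without WT1. Pole, the catalytic subunit of the leading-strand polymerase epsilon, was at 31.8, 83.5 and 98.2 CPM across WT1, WT2 and WT3 and 99.9, 107 and 112 CPM across KO1, KO2 and KO3, so that WT1 held 2.62-fold less than the next lowest library. Its log2 fold change was 0.22 without WT1 (edgeR adjusted p 0.289) and 0.58 with it. Pole2, its second subunit, had 0.18 without WT1 and -0.10 with it. For polymerase delta, Pold2 was at 150.0, 109.6 and 105 CPM across WT1, WT2 and WT3 and 115, 114 and 126 CPM across KO1, KO2 and KO3 (log2 fold change 0.15 without WT1, 95% interval -0.017 to 0.32) and Pold1, the catalytic subunit, had 0.040.

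The clamp and its loader had log2 fold changes of 0.0028 to 0.28 without WT1, and none passed. With all 6 libraries 2 of these 6 genes were above 0. Pcna, the clamp that tethers polymerases, was at 372, 316 and 307 CPM across WT1, WT2 and WT3 and 313, 342 and 326 CPM across KO1, KO2 and KO3 (log2 fold change 0.072 without WT1, 95% interval -0.059 to 0.20). Its genotypes overlapped. Rfc5, a small loader subunit, was at 168, 119 and 111 CPM across WT1, WT2 and WT3 and 130.5, 146 and 141 CPM across KO1, KO2 and KO3, with KO above WT2 and WT3 and WT1 highest (log2 fold change 0.28, edgeR adjusted p 0.107, without WT1). Rfc5 overlaps Wsb2 on the opposite strand. The other loader genes, Rfc1, Rfc2, Rfc3 and Rfc4, had 0.040, 0.011, 0.0028 and 0.073. Rfc4 stood out in WT1, at 127, 61.6 and 65.6 CPM across WT1, WT2 and WT3 and 67.8, 64.0 and 68.8 CPM across KO1, KO2 and KO3.

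Single-strand binding and strand-joining genes did not pass in either fit. Without WT1 their log2 fold changes ran from -0.033 to 0.094, the narrowest range of the 8 roles there, and with all 6 libraries from -0.44 to 0.073, wider than that of the licensing genes. Without WT1 the RPA subunits Rpa1, Rpa2 and Rpa3, which coat single-stranded DNA, had log2 fold changes of 0.094, -0.033 and 0.058. Fen1, the flap nuclease that trims Okazaki fragments, and Lig1, the ligase that seals them, had -0.025 and 0.036, with 95% intervals of -0.17 to 0.12 and -0.091 to 0.16. None of the 5 had KO clear of WT2 and WT3. Fen1 was at 321, 181 and 189 CPM across WT1, WT2 and WT3 and 184, 173 and 188 CPM across KO1, KO2 and KO3, so its value with all 6 libraries (-0.34) came with a WT1 level above all others. Chromatin genes were mixed. Slbp, which binds the stem-loop of histone mRNAs, was at 679, 314 and 294 CPM across WT1, WT2 and WT3 and 337, 346 and 336 CPM across KO1, KO2 and KO3. Its log2 fold change was 0.16 without WT1 (SE 0.057, edgeR adjusted p 0.218) and -0.34 with it. Uhrf1, which carries DNA methylation through replication, had 0.12 (edgeR adjusted p 0.365) with every KO library above every WT library. The CAF-1 subunits Chaf1a and Chaf1b, which deposit histones behind the fork, had -0.086 and -0.048 without WT1, with 95% intervals of -0.24 to 0.065 and -0.26 to 0.16.

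Leaving out WT1 turned the direction of many of these values. Between the 2 fits 21 of 49 genes changed sign, 18 of them from below 0 with WT1 to above 0 without it. WT1 was the highest of the 6 libraries for 28 members (57.1%, against 36.8% of all tested genes) and the lowest for 18 (36.7%, against 39.6%). It lay more than 1.5-fold above every other library for Rfc4, Rpa3, Fen1, Slbp and Ccne2, and more than 1.5-fold below for Mcm10, Pola1, Pole and Chaf1a. The 4 low genes have annotated transcripts of 4867, 5346, 7163 and 7698 bases. Of the 5 high ones, Rpa3 and Rfc4 are short (682 and 1279 bases), and Fen1, Slbp and Ccne2 have 2373, 2922 and 3006 bases. Not all long members were low, since Rfc2 and Rpa1 (4995 and 5077 bases) were highest in WT1. The median log2 difference of WT1 from WT2 and WT3 was 0.35 over 11 members under 2000 bases and -0.26 over 11 members of at least 4000 bases. Over all tested genes these medians were 0.29 and -0.46. Spearman's rho of that difference with length was -0.518 over the 49 members and -0.348 over 13053 genes, a description across genes of the same 3 libraries. With a trend on transcript length in the offsets of the 6-library fit, Rrm2, Ccne2 and Rrm1 had log2 fold changes of 0.012, -0.035 and 0.20, none called.

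**Figure D4:**
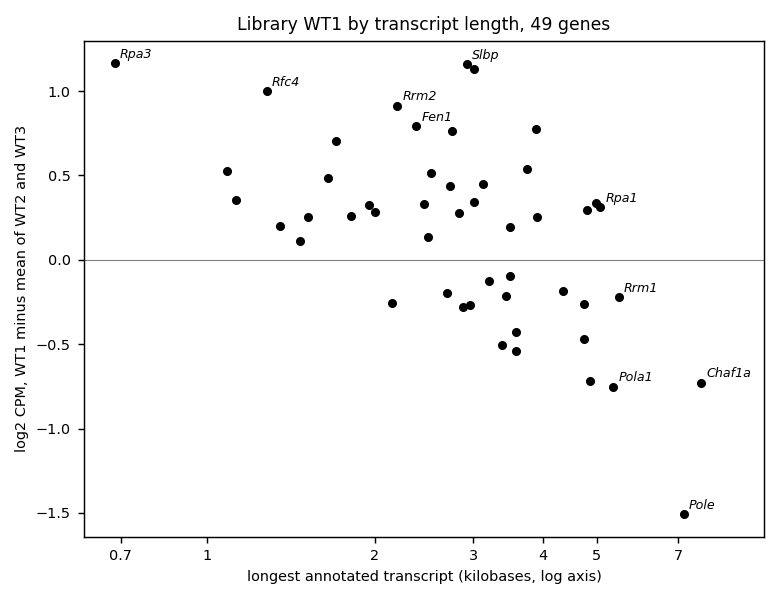
Points are the 49 genes, with the length of the longest annotated transcript on a log axis and the log2 CPM of WT1 minus the mean of WT2 and WT3 on the vertical axis. Pole and Chaf1a, the longest, lie low at -1.51 and -0.73, and the short Rpa3 and Rfc4 lie high, with Rpa3 at 1.16.

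**Figure D5:**
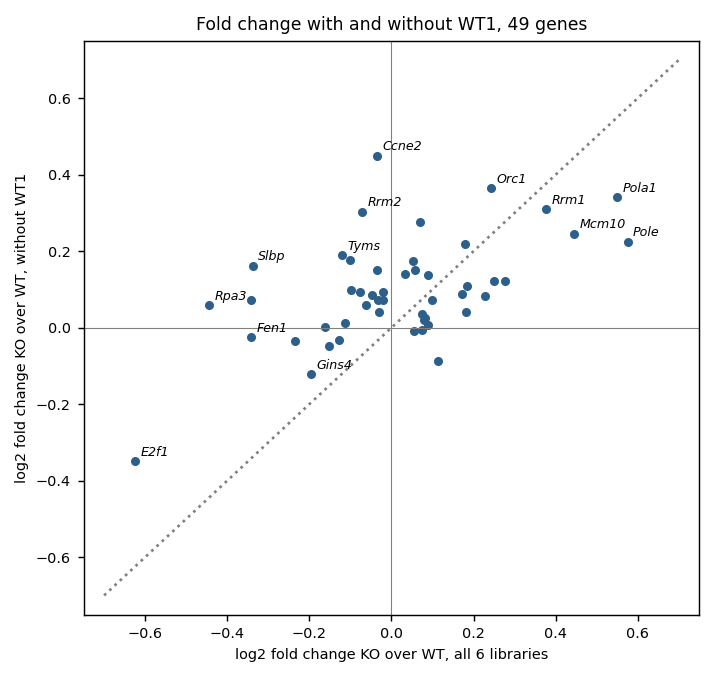
Points are the 49 genes, with the log2 fold change (KO over WT) from all 6 libraries on the horizontal axis and from the fit without WT1 on the vertical axis, and a dotted line of equality. Ccne2 (-0.035 and 0.45), Rrm2 (-0.071 and 0.30) and Slbp (-0.34 and 0.16) lie below 0 on the horizontal and above 0 on the vertical axis.

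Levels per length spanned 46.1-fold, with a median of 42.5 CPM per kilobase of the longest transcript over the 6 libraries. Which transcript was expressed was not tested, so comparisons per kilobase between genes rest in part on the annotation. Rrm2 was highest (399), followed by Pcna (217), Mcm5 (142), Mcm3 (141), Slbp (132) and Mcm6 (127 CPM per kilobase). At the low end, E2f2 (8.64), Pola1 (11.6), Gins3 (11.7), Pole (12.4) and Mcm10 (12.7 CPM per kilobase) came last. Without WT1, Slbp stood at 111 CPM per kilobase, below Mcm6 (130.1) and Mcm2 (119), and Pole2 (12.8) joined the lowest genes beside Gins3 (11.0) and Pola1 (12.6). Over the 6 libraries Pold1, the catalytic subunit of polymerase delta, was at 58.5 CPM per kilobase, above the median, while the catalytic subunits Pola1 and Pole were among the lowest. The 3 RPA subunits were within 1.25-fold of each other, whereas the 2 reductase subunits differed by 4.33-fold. The median coefficient of variation over the members was 4.23% in KO, 4.62% in WT2 and WT3, and 15.3% in all 3 WT libraries.

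A list of 102 further genes of replication, nucleotide synthesis, G1/S control and chromatin copying gave a median of like size. Without WT1, 6 of 101 tested (5.94%) were called higher and 0 lower, against 1.17% and 0.652% of all tested genes. The median log2 fold change was 0.086. With all 6 libraries 0 were called in either direction, against 0.0300% of all genes (median 0.070). Rbl1, the pocket protein p107 that restrains E2F, was at 82.4, 98.2 and 102 CPM across WT1, WT2 and WT3 and 128, 138 and 129 CPM across KO1, KO2 and KO3, a log2 fold change of 0.40 (SE 0.074, edgeR adjusted p 0.0170) without WT1. Ccna2, cyclin A2 of S phase and G2, had 0.38 (edgeR adjusted p 0.0291), and Dck, which salvages deoxynucleosides, had 0.34 (adjusted p 0.0487). Pclaf, a PCNA partner, had 0.42, the histone chaperone gene Asf1b 0.29 and Atad2, an E2F cofactor on chromatin, 0.27 (edgeR adjusted p 0.0365, 0.0471 and 0.0401). Every KO library lay above every WT library for Rbl1, Ccna2, Dck and Atad2, while WT1 was the highest library for Pclaf and Asf1b. By list, without WT1, 2 of 24 tested G1/S genes, 2 of 15 chromatin genes, 1 of 20 fork genes, 1 of 28 nucleotide genes and 0 of 14 licensing genes were called, each higher. Leaving out WT3, KO2 or KO3 ended all 6 calls, leaving out WT2 ended all but that of Pclaf, and leaving out KO1 ended none. The 6 genes had edgeR adjusted p of 0.0227 to 0.137 without WT2, 0.0666 to 0.280 without WT3, 0.00635 to 0.0496 without KO1, 0.107 to 0.225 without KO2 and 0.0803 to 0.224 without KO3.

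Genes of mitosis gave larger values in the same libraries. Of 35 mitotic genes, 19 (54.3%) were called higher without WT1 and 0 lower, against 1.17% and 0.652% of all tested genes. The median log2 fold change was 0.41 there (4.76e-04 over all tested genes). With all 6 libraries 0 were called in either direction, against 0.0300% of all genes, and the median was 0.46 (-0.0039 over all). Relative to the mean of the 6 libraries, the median log2 level of the mitotic genes was -0.19, -0.24 and -0.19 across WT1, WT2 and WT3 and 0.12, 0.25 and 0.25 across KO1, KO2 and KO3. That of the 49 replication genes was 0.18, -0.017 and -0.11 across WT1, WT2 and WT3 and -0.024, 0.032 and 0.040 across KO1, KO2 and KO3. In these medians the mitotic genes separated all KO from all WT libraries, and the replication genes did not. Both lists were drawn up with earlier results of these data known, so the contrast is a description only. The difference between the lists was not tested.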

How the data were processed

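The authors deposited 1 table of estimated counts per gene for the 6 samples. Its values carry no normalization by their look: they are never below 0, their totals differ, and 60.2% of non-zero values are whole within 0.001. Per the submitters' processing notes, the mm10 build and the tools STAR 2.7.8, Partek 10.0 and DESeq2 were used, with no roles given. The sources used here do not give the gene counter or strand setting. Per the labels, cDNA came from a SMARTer low-input kit. Counts were rounded to whole numbers. Levels are CPM, scaled by TMM over the 6 libraries. Genes kept by filterByExpr (minimum count 10, total 15) were tested with edgeR 4.0.16 in R 4.3.3 (robust quasi-likelihood, genotype only, Benjamini-Hochberg over all genes), with all 6 libraries and without WT1. SE was found by dividing the log2 fold change by the square root of F. DESeq2 1.42.0 and limma 3.58.1 were alternatives, and the tests were tried on simulated data. GENCODE M21 gave positions and longest transcripts. PCR reads are not independent molecules. Other fits left out each library (a lone WT library was taken to vary like the KO ones) or changed size factors, filter, threshold, length trend or block. The members, lists and the choice to show results without WT1 were made with earlier results of these data known. The rule for named genes took called members, the most abundant member per length of each role, the 4 largest and 4 smallest log2 fold changes without WT1 at a mean of at least 10 CPM, members that complete a role, Cd48, and up to 4 called genes of each further list. Of the members, 14 overlap a counted gene on the opposite strand, so reads from a shared stretch cannot be told apart with certainty. Overlap was judged from the start and end of each gene, and shared exons were not examined.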

Additional observations from a re-analysis of the deposited data

How the results depend on the processing

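With all 6 libraries, edgeR called 4 genes over the whole table, DESeq2 108 and limma-voom 95, and leaving out each library gave 0 to 248, with 0 without KO1 and without KO3 and 248 without WT1. Of the 49 members, 0 to 3 were called when each library was left out, the 3 being Rrm1, Rrm2 and Ccne2 without WT1, none of them called with WT1. Log2 fold changes that turned sign were all uncalled on the 6 libraries. They ran, as each library was left out, over -0.24 to 0.30 for Rrm2, -0.24 to 0.45 for Ccne2, -0.13 to 0.15 for Pold2, -0.11 to 0.073 for Ccne1, -0.55 to 0.16 for Slbp, -0.072 to 0.072 for Pcna, -0.086 to 0.25 for Chaf1a, -0.21 to 0.29 for Asf1b and -0.027 to 0.42 for Pclaf. With limma-voom they turned to 0.28 for Rrm2, 0.42 for Ccne2, 0.12 for Pold2, 0.051 for Ccne1, 0.12 for Slbp, 0.068 for Pcna, -0.081 for Chaf1a and 0.27 for Asf1b, with the length trend to 0.012 for Rrm2, 0.083 for Pold2, 0.050 for Ccne1, 0.096 for Pcna, -0.12 for Chaf1a and 0.070 for Asf1b, and with the replicate block to 0.072 for Ccne2 and 0.010 for Asf1b. Without WT1 the values of -0.15 to 0.040 for Chaf1b, -0.81 to 0.25 for E2f1 and -0.062 to 0.0054 for Fen1 turned as a further library was left out, and that of Chaf1b turned to 0.031 with the block. Without WT1, 248 genes were called, 412 by DESeq2, 420 at an adjusted p under 0.1 and 65 to 517 when a further library was left out, and the members called ran from 0 to 5. The 5 without KO1 were Rrm1, Rrm2, Ccne2, Pola1 and Rfc5. Other size factors, no filter, a mean of at least 10 CPM, limma-voom and a length trend in the offsets each kept 3 members called without WT1, the same Rrm1, Rrm2 and Ccne2. The median log2 fold change of the members ran from -0.049 to 0.085 over the settings of the 6-library fit and from 0.044 to 0.13 over those without WT1. With the replicate number as a block, 0 genes and 0 members were called with all 6 libraries (776 genes at an unadjusted p under 0.05), and 570 genes and 5 members without WT1. Same-numbered samples share only a number: their deviations from the group means correlated at -0.0461 to -0.00911 across genes. No sample correlated best with its own number. The settings for Pclaf, Dck, Rbl1, Ccna2, Atad2 and Asf1b were added after the data had been seen. Among the members, the widest 95% interval was that of Pole with all 6 libraries and that of E2f1 without WT1.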
